A study of Caenorhabditis elegans with 3 samples.

Results

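The regions described here are ChIP-seq peaks of the tagged rcat-1 product on the autosomes of Caenorhabditis elegans that lie just upstream of short runs of closely spaced genes on the same strand. A peak was included when its summit, the point of strongest signal, lay at most 1000 bp upstream of protein-coding gene starts on one strand only, and when the nearest of those genes was followed on its strand by another protein-coding gene at most 500 bp after its end. This spacing resembles that of an operon, but no operon annotation was used, so "run" refers to gene spacing only and is counted from the gene nearest to the summit onwards; that gene may itself stand close behind another. The rule used gene positions and no peak strength. It found 584 members among 9803 autosomal peaks of the pooled list (5.96%), which held 11533 peaks in all, and the members lay nearest to 521 genes. Of the 584 members, 47 were also in the authors' thresholded list, which keeps peaks by the irreproducible discovery rate, and these 47 lay nearest to 44 genes.

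Whole L4 larvae, the last larval stage before the adult, were assayed by chromatin immunoprecipitation and sequencing in 3 biological replicates of 1 group. All replicates were strain OP218, a mixed-sex population of unknown age with the allele unc-119(ed3) on chromosome III and the insertion wgIs218, which carries R02D3.7 (rcat-1) fused to eGFP; for replicate 3 the labels add a C-terminal GFP-FLAG fusion. One insertion line stood for the gene, and the labels do not say whether the untagged gene was also present. The antibody is labelled only as R02D3.7. Replicate 3 differed in its labels, which name sonication by microtip and a laboratory source, whereas those of replicates 1 and 2 name a size range and the CGC stock collection. There was no second condition. The larvae were not dissected, so a site bound in few cells and a site bound weakly in many cells cannot be told apart.

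In C. elegans a sizeable part of the genes lies in operons, where one promoter upstream of the first gene gives a long transcript that is cut into separate messages, each capped by trans-splicing of a short leader RNA. Genes in such units stand on one strand with short gaps between them. Many encode parts of the basic machinery of growing cells, such as ribosomal proteins, splicing factors and mitochondrial proteins. Some genes inside an operon also have a promoter of their own in the gap before them.

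The sequences round the strongest thresholded members are given first, because many of them share a short word. The 8-mer CGTAAATC, searched on both strands in the 50 bp to either side of each summit, was present in 18 of the 47 thresholded members (38.3%, exact interval 24.5% to 53.6%), in 11 of the 537 other members (2.05%), and in 392 of all 9803 autosomal summit windows (4%). Of all 328 autosomal thresholded peaks, 144 held it (43.9%), so the 8-mer is not particular to members. The following windows reach 50 bp to either side of the summit and run 5′ to 3′ in the direction of the nearest gene, with the 8-mer or its reverse complement in capitals. Coordinates are those of ce11, which is the WBcel235 assembly, and the letters come from the RefSeq copy of that assembly. Windows that reach into an annotated UTR are not shown at full length.
F54D10.5, chrII:3808243-3808343, minus strand: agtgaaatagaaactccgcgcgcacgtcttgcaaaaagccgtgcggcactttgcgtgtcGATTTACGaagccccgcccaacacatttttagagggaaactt
chk-1, chrV:3759662-3759762, minus strand: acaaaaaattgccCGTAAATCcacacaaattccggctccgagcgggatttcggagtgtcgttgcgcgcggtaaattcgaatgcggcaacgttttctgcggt
pro-1, chrII:10542109-10542209, minus strand: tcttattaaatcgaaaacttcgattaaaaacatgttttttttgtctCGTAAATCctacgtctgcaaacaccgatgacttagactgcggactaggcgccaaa
rpb-6, chrII:10579019-10579119, plus strand: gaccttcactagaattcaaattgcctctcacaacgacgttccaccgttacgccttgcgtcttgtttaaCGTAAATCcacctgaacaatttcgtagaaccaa

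The 8-mer of F54D10.5 faced away from the gene, and the 8-mers of chk-1, pro-1 and rpb-6 faced towards it. Across the 18 thresholded members with the 8-mer, it read in the gene's direction in 13 and against it in 5. Its centre lay a median of 18.5 bp from the summit (0.5 to 36.5 bp), within 25 bp in 12 members, and a median of 256.5 bp upstream of the gene start. To show what surrounds the word, the next lines turn it to read CGTAAATC, in capitals, with 10 bp on each side, in 9 further thresholded members.
ZK1248.19, chrII:5839393-5839420, plus strand: aaatgcatttCGTAAATCgagtgtacgc
fnta-1, chrIV:240517-240544, minus strand: gttggctgccCGTAAATCcacatgagag
ndub-3, chrII:8964984-8965011, minus strand: ttacacaccgCGTAAATCtacacaaact
arl-8, chrIV:14797497-14797524, plus strand: ccgcgtgctgCGTAAATCgacacactcg
F45F2.10, chrV:8519231-8519258, minus strand: tctcatctctCGTAAATCgacaaagagt
Y37D8A.6, chrIII:12870854-12870881, minus strand: aatccgggtcCGTAAATCgacactacag
ptp-2, chrII:5918374-5918401, minus strand: cgttgtttaaCGTAAATCtagaacggag
pgm-3, chrIV:8725607-8725634, plus strand: tgtttagcgcCGTAAATCaacatgtagt
ZK856.11, chrV:10205178-10205205, minus strand: ggtagcctacCGTAAATCgacatatcga

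Behind the 8-mer the next base was G in 10 of the 18 thresholded members and C in 5. The second base was A in 17 of 18, the third C in 14 and the fourth A in 14, so most copies continued into a word close to ACA. The longer pattern of CGTAAA, any 3 bases and then ACAC, chosen after these sequences were seen and searched on both strands, was present in 12 of the 47 thresholded members (25.5%), in 6 of the 537 other members (1.12%) and in 250 of all 9803 autosomal windows (2.55%). Of those 12 members, 3 lacked the exact 8-mer. The longer pattern is not particular to members. It was present in 28 of 91 thresholded peaks upstream of a gene with no close follower (30.8%). In thresholded peaks of divergent promoters, with starts on both strands within 1000 bp, it was present in 34 of 97 (35.1%). A match is a description of the letters only.

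Several of the strongest members lacked the 8-mer, and 4 of them are shown for that reason, in lower case throughout since no 8-mer is present.
rps-24, chrIV:385530-385630, plus strand: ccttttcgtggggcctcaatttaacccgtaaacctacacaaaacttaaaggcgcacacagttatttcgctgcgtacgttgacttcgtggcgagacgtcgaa
hat-1, chrIII:10407420-10407520, minus strand: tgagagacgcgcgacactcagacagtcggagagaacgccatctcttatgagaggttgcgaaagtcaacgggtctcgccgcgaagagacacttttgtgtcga
rpl-29, chrIV:13881901-13882001, plus strand: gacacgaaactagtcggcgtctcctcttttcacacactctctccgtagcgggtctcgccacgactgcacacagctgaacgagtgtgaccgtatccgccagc
F56A8.3, chrIII:13256590-13256690, plus strand: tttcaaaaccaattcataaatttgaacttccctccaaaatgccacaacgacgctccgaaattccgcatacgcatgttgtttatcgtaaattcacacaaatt

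The windows of rps-24 and F56A8.3 hold the longer pattern without the exact 8-mer, with CGTAAA, 3 other bases and then ACAC. Of the other words, CGTAAA was present in 25 of the 47 thresholded members (53.2%), against 7.99% of all autosomal windows. CGACAC was present in 16 (34%, against 5.01%), ACACTC in 12 (25.5%, against 4.15%) and ACGCGC in 8 (17%, against 3.39%), each counted on both strands. Of all 328 autosomal thresholded peaks, 51.5% held CGTAAA, 28% CGACAC, 19.5% ACACTC and 16.5% ACGCGC. The excess over all windows is thus not particular to members. CGTAAA is part of the 8-mer, and CGACAC shares a letter with an 8-mer that is followed by GACAC, so these counts are not separate. In the compared classes the 8-mer was present in 46 of 91 thresholded peaks upstream of a gene with no close follower (50.5%) and in 51 of 97 thresholded peaks in divergent promoters (52.6%), where starts on both strands lay within 1000 bp. The share in thresholded members was lower by 12.3 percentage points than the first of these (difference -12.3, interval -28.3 to 5.23) and by 14.3 than the second (difference -14.3, interval -30.1 to 3.06). Both intervals contain 0, so a difference from either class was not established, nor was equality.

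Thresholded members with and without the 8-mer overlapped in strength. The deposited signal, the strength given by the authors' peak caller, had a median of 63.7 (39 to 315) in the 18 thresholded members with the 8-mer and of 59.1 (35.8 to 296) in the 29 without it. The median distance to the start was 237 bp with the 8-mer and 247 bp without. Support by all 3 replicates was seen in 14 of 18 with the 8-mer and in 20 of 29 without.

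**Figure D1:**
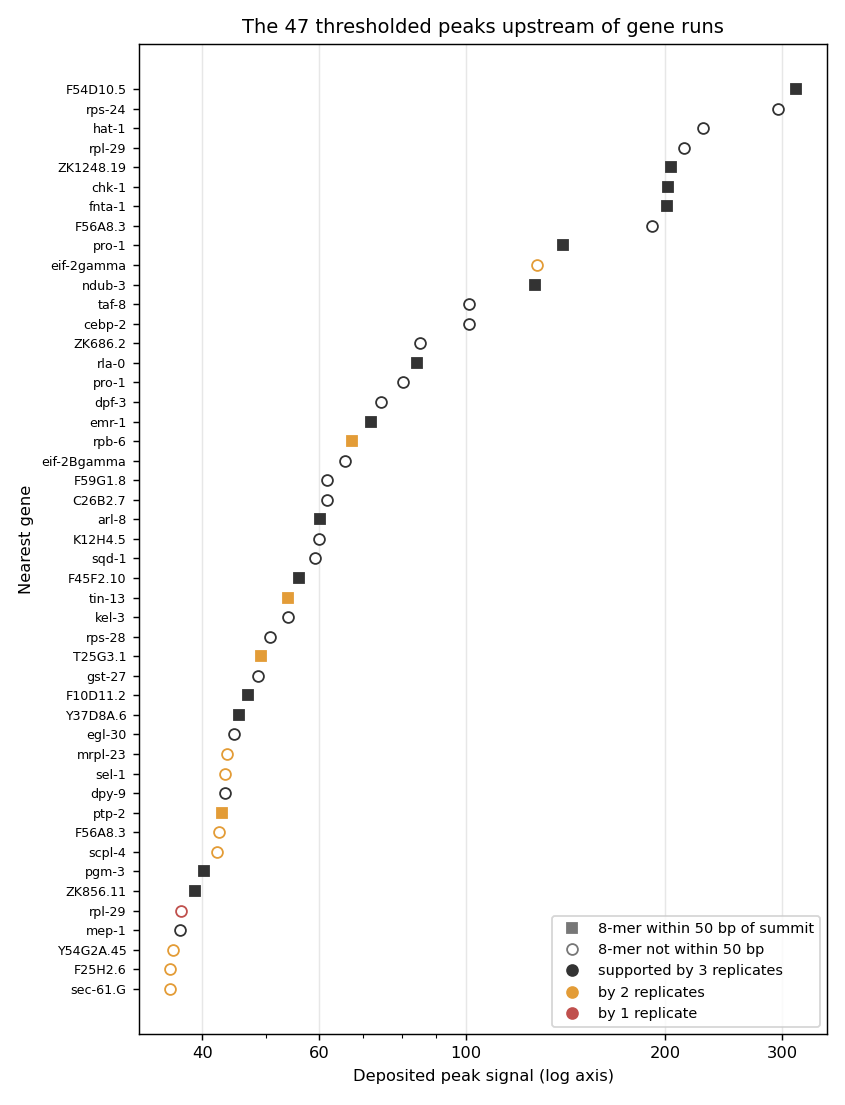
Deposited peak signal (log axis) of the 47 thresholded members, 1 row per peak with its nearest gene, in order of signal. Squares have CGTAAATC within 50 bp of the summit and open circles do not, and colour gives the number of supporting replicates; 34 are supported by 3 replicates, 12 by 2 and 1 by 1, and both symbols run from the top of the range to its lower part.

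The strongest member lay upstream of F54D10.5, which RefSeq describes as an uncharacterized protein and which is followed after 106 bp by F54D10.4. Its signal was 315 in the pooled list, where it held rank 17 of all peaks, and its summit on chromosome II at 3808293 was intergenic, 116 bp upstream of the gene. It held ranks 14, 28 and 28 in the lists of replicates 1, 2 and 3, with deposited signals of 162, 68.5 and 87.4. Signals were ranked within a list and not compared between lists. A peak near the top of each list was thus present in each of the replicates.

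Thresholded members nearest to cytosolic ribosomal protein genes are described next, as a group and not in order of strength. They are 5 of the 13 members nearest to such a gene, and the rest were not thresholded. The peak upstream of rps-24, a protein of the small ribosomal subunit, had a signal of 296 and ranks of 21, 23 and 24 in replicates 1, 2 and 3, with its summit 307 bp upstream on chromosome IV at 385580. This run holds T07A9.14, which carries the same RefSeq product name as rps-24, and ssna-1. The peak upstream of rpl-29, a protein of the large subunit followed after 115 bp by the THO complex gene thoc-7, had a signal of 213 and ranks of 30, 87 and 30. A second, weaker thresholded peak (37.1) overlapped it, with its summit 73 bp from the rpl-29 start, and was the only thresholded member supported by 1 replicate. The peak of rla-0, a ribosomal stalk protein whose run continues with tct-1, had a signal of 84.3 and ranks of 118, 139 and 258. The peak of rps-28 had 50.7 and ranks of 279, 441 and 256. The strongest peak of each of these 4 genes was thus among the top 500 of each replicate.

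Translation initiation factor genes were nearest to 2 thresholded members. The peak of eif-2gamma, a subunit of the factor that brings the initiator tRNA to the ribosome, had a signal of 128 and ranks of 56 in replicate 1 and 81 in replicate 3, and no replicate 2 summit fell inside it. The run continues after 314 bp with ekl-7. The peak of eif-2Bgamma, a subunit of the exchange factor for eIF2, had a signal of 65.6 and ranks of 213, 185 and 217, and its run continues with the sex-determination gene tra-2. Both summits lay in the gap behind a preceding gene of the same strand, 312 bp and 251 bp wide.

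Some strong members lay next to genes that act on DNA, chromatin or transcription, grouped here by the products of single genes and not by a list. The peak of hat-1, the type B histone acetyltransferase, had a signal of 228 and ranks of 38, 48 and 25, and its summit lay in an intron of another annotated gene, 222 bp upstream of hat-1. The following gene, the DNA helicase gene chl-1, began 7 bp after hat-1. The peak of chk-1, the DNA damage checkpoint kinase, had a signal of 202 and ranks of 28, 59 and 80. The peak of taf-8, a subunit of the general transcription factor TFIID, had a signal of 101.3 and ranks of 92, 248 and 139. The peak of cebp-2, a bZIP transcription factor whose run continues with lpd-2 and the RNA polymerase III gene let-611, had 101.1, with ranks of 131, 115 and 132. These 4 peaks were supported by all 3 replicates. They are named for their strength and do not set a gene group apart. By the gene lists, 1 of 19 members with a chromatin, replication or repair gene in the run was thresholded. For RNA polymerases and general transcription factors it was 2 of 21, and for cell cycle genes 0 of 16, against 8.05% of all members.

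The longest thresholded run held 7 genes and began with rpb-6, a subunit shared by RNA polymerases I, II and III. Behind it stand dohh-1, which modifies translation factor eIF5A, dap-3 and mrps-22 of the mitochondrial ribosome, algn-9 of N-glycan assembly, and crn-3 and crn-5, homologs of exosome components. The peak had a signal of 67.2 with its summit 311 bp upstream of rpb-6, and ranks of 143 in replicate 1, 7940 in replicate 2 and 148 in replicate 3. Replicate 2 thus held it far down its list, while replicates 1 and 3 held it among their top 150. Inside this run 2 other pooled summits were found, the stronger with a signal of 12.2. The next longest run, of 4 genes, began with K12H4.5 and continued with the signal peptidase gene spcs-3, K12H4.3 and K12H4.2; its peak had 60 and ranks of 238, 212 and 222.

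Mitochondrial and lipid genes also led runs with thresholded members. The peak of ndub-3, a subunit of respiratory complex I, had a signal of 127 and ranks of 100, 100 and 83. Its summit lay in the 5' UTR of a gene on the other strand. The peak of C26B2.7, which RefSeq names as the assembly protein COX20 of cytochrome c oxidase, had 61.7 and ranks of 199, 150 and 422. The peak of fnta-1, the alpha subunit of protein prenylation enzymes, had 201 and ranks of 39, 81 and 40. It was 1 of 2 thresholded members within 20 kb of rcat-1, the tagged gene itself, which lies on chromosome IV from 253619 to 255429. The other was the peak of the collagen gene dpy-9 (43.3, ranks 633, 362 and 210). Whether the transgene contributes to peaks near the gene was not tested.

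Further strong members lay upstream of genes with varied roles. ZK1248.19, described by RefSeq as an ICAT domain protein, had a signal of 204, a summit 2 bp upstream of its start and ranks of 27, 53 and 55. F56A8.3, a leucine-rich repeat protein, had 191 and ranks of 54, 35 and 49, and a second thresholded peak of 42.4 overlapped it. The pre-rRNA processing gene pro-1, whose run continues with R166.3 and R166.2, had 2 overlapping thresholded peaks of 140 and 80.3, with summits 163 and 371 bp upstream and ranks of 62, 250 and 79 for the stronger. Thus pro-1, F56A8.3 and rpl-29 each had 2 thresholded members that share sequence and are not independent sites. ZK686.2, an RNA helicase gene followed by the metaxin gene mtx-2, had 85.2. The peak of dpf-3, followed by the collagen gene dpy-14, had 74.5, with ranks of 449, 83 and 153.

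The remaining members among the 25 strongest had signals from 59.1 to 72. The peak of emr-1, emerin of the nuclear envelope, had 72 and lay 398 bp upstream of its start, in a run with the neuropeptide gene nlp-12. F59G1.8 (61.8), named as an E granule component by RefSeq, stands 180 bp behind another gene of its strand and is followed by vps-35 of the retromer and the ceramide glucosyltransferase gene cgt-3. The peak of arl-8, a small GTPase of lysosome transport, had 60.2 and lay 650 bp upstream of the gene start. The peak of sqd-1 (59.1) precedes lsm-8, whose product binds U6 snRNA, and seu-1. Each of these 4 was supported by all 3 replicates, with replicate ranks between 119 and 937.

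Members just inside and just outside the authors' threshold had nearly equal signals. The last 3 thresholded members were those of Y54G2A.45 (36.2), F25H2.6 (35.8) and sec-61.G (35.8), a subunit of the protein translocation channel. The first 3 outside were those of syf-3 (35.5), a second peak of fnta-1 (35.1) and kvs-3 (34.7). All 6 had a deposited −log10 q of 2.93 and were supported by 2 replicates. The second fnta-1 peak overlapped the stronger one, and its support in replicate 1 was the same summit, of rank 39. The threshold therefore divided a continuous range. The 47 thresholded members were also the 47 members ranked by signal within the first 390 pooled peaks, as many as the thresholded list holds. Among members the list thus coincided with a cut on signal, and near-equal signals on either side follow from that. Comparisons of thresholded with other members are therefore also comparisons of strong with weak peaks.

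Support from the replicates was counted for a thresholded member when a replicate peak had its summit inside it and was among the strongest of that replicate, taken as 5 times the number of peaks in the thresholded list. All 3 replicates supported 34 of the 47 (72.3%, exact interval 57.4% to 84.4%), against 74.4% of all 328 autosomal thresholded peaks. Exactly 2 replicates supported 12, 1 replicate supported 1, and no thresholded member was without support. Replicates 1, 2 and 3 supported 43, 40 and 44 of the 47, with median ranks of 211, 250 and 173 where a summit was present. In the compared classes the full support was 71 of 91 for one-strand peaks with no close follower (78%) and 84 of 97 for divergent promoters (86.6%). The thresholded list was derived from the same reads, so this support is not independent of it. Among the 537 other members, 9 were supported by all 3 replicates, 65 by 2, 142 by 1 and 321 by none. A replicate summit counts for each of 2 overlapping peaks. For example, the weaker peaks of hat-1, eif-2Bgamma and kel-3, with full support, share summits with a thresholded member. No share over all other autosomal peaks is set beside these counts.

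**Figure D2:**
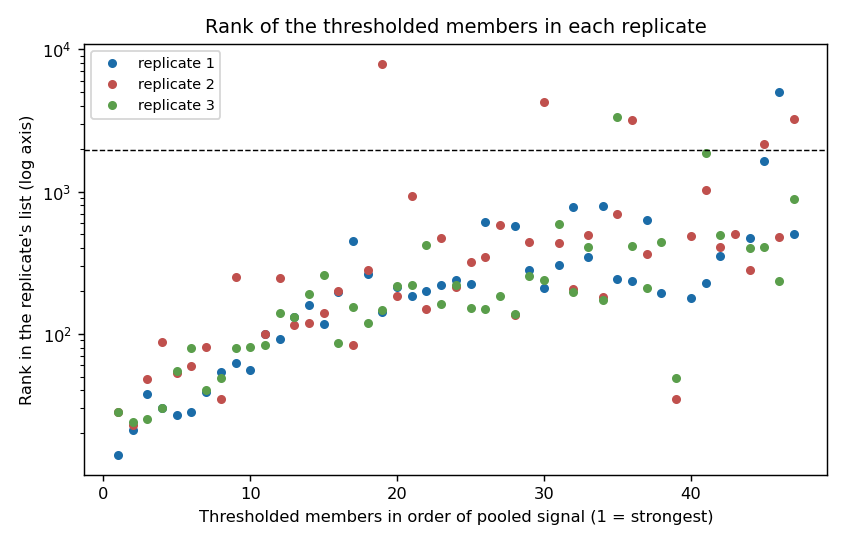
Rank in the lists of replicates 1, 2 and 3 (log axis, low numbers are strong) of the thresholded members, in order of pooled signal from left to right; a missing point means that no summit of that replicate lay inside the peak. Points below the dashed line, drawn at 5 times the length of the thresholded list, count as support, and most of the points above it belong to replicate 2.

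Whether a peak upstream of a run was more often in the thresholded list than other promoter peaks was the main comparison. Of the members, 47 of 584 were thresholded (8.05%, exact interval 5.97% to 10.6%), against 328 of all 9803 autosomal pooled peaks (3.35%). One-strand promoter peaks with no close follower had 91 of 1728 (5.27%, 4.26% to 6.43%), divergent promoter peaks 97 of 537 (18.1%, 14.9% to 21.6%), and peaks with no protein-coding start within 1000 bp downstream 93 of 6954 (1.34%). The share in members was higher by 2.78 percentage points than in one-strand peaks with no close follower (interval 0.522 to 5.45). Against divergent promoters the difference was -10 points (interval -14 to -6.1), and against all other autosomal peaks 5 points (3.02 to 7.51). Members thus stood between the other one-strand promoters and the divergent ones. The first of these differences was 1.95 points (-0.542 to 5.18) with first genes of runs only and 0.931 points (-0.618 to 2.92) with the stronger part of the thresholded list, and both of these intervals contain 0. These intervals treat peaks as independent and cover counting error only.

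The order of the classes was the same on 4 of the autosomes and differed on 1. The share of thresholded members was 8.27% on chromosome I, 8.87% on II, 6.31% on III, 11.7% on IV and 5.31% on V, from 133, 124, 111, 103 and 113 members. For one-strand peaks with no close follower it was 5.28%, 4.76%, 6.4%, 5.96% and 3.95% on the same chromosomes. On III the members were slightly below this class, and on the other 4 above it. Divergent promoters were above both on each of the 5, at 15.4% to 21.6%.

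**Figure D3:**
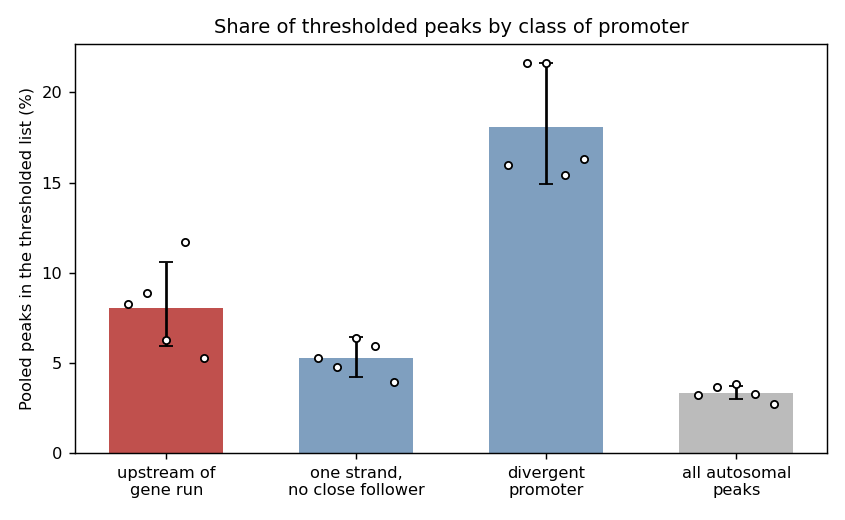
Share of autosomal pooled peaks that were in the thresholded list, for peaks upstream of a gene run, one-strand promoter peaks with no close follower, divergent promoter peaks and all autosomal peaks. Bars are shares with exact 95% intervals and open points are chromosomes I to V from left to right; members stand at 8.05%, between 5.27% and 18.1%.

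Within the thresholded list members had the lowest median signal of the 3 promoter classes. Thresholded members had a median signal of 60 (quartiles 43.5 and 101.2, highest 315), one-strand peaks with no close follower a median of 68.4 (highest 901) and divergent promoter peaks a median of 109 (highest 808). All members had a median of 14.7, with a range from 10.3 to 315, against 13.1 for all autosomal peaks. Members made up 16% of the 50 strongest autosomal peaks, 10% of the next 50, 15% of the next 100 and 14.8% of the rest down to rank 328. Further down the list their share was 11.6% up to rank 500, 11.2% up to rank 1000, 8.1% up to rank 2000, 6.13% up to rank 5000 and 4.08% below that. Divergent promoters, by comparison, made up 50% of the 50 strongest peaks and 3% of the weakest class.

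Thresholded members lay closer to the gene start than the other members. Their summits stood a median of 243 bp upstream (quartiles 125.5 and 367.5, range 2 to 987), against 369 bp in the other members (192 and 653). Within 500 bp of the start were 41 of the 47 thresholded members and 344 of the 537 others. Summits more than 200 and up to 300 bp upstream made up 14 of the 47, against 88 of the 537 others. One-strand thresholded peaks with no close follower had a median of 254 bp, against 406 bp in those not thresholded. Divergent ones had 140 bp against 188 bp, so the shift towards the start is not particular to members. The median of thresholded members lay nearer to that of other one-strand promoters.

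**Figure D4:**
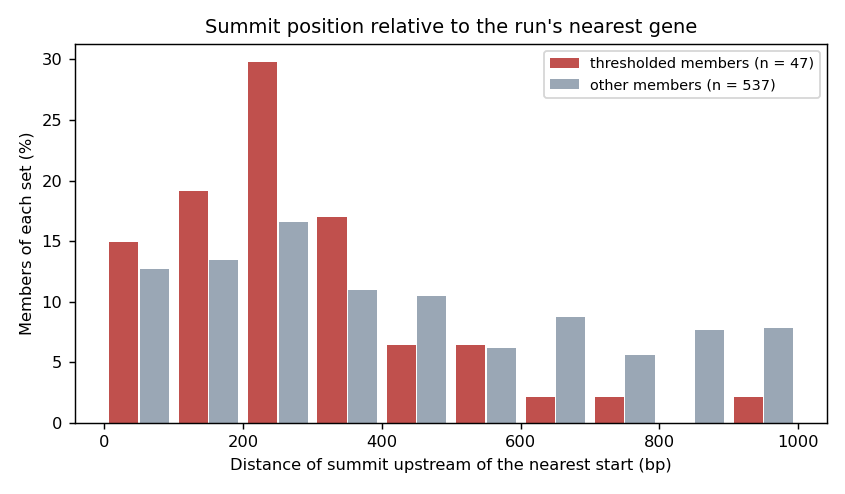
Distance of the summit upstream of the nearest gene start, in bins of 100 bp, as percent of the 47 thresholded members (left bar of each pair) and of the 537 other members (right bar). Thresholded members pile up below 400 bp, with a median of 243 bp, and the other members spread to 1000 bp, with a median of 369 bp.

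Summits of thresholded members were mostly in intergenic sequence. Of the 47, 36 were intergenic (76.6%), 4 lay in a 5' UTR, 3 in a 3' UTR, 3 in another exon, 1 in an intron and none in a coding exon. The 4 in a 5' UTR were those of ndub-3, fnta-1, arl-8 and F25H2.6. In each the UTR was that of a gene on the other strand, whose start the summit had passed. The rule counts these 4 as one-strand peaks, although starts on both strands lay near, so the border with divergent promoters is not sharp. Of the 537 other members, 290 were intergenic (54%) and 84 were in a coding exon. Within a protein-coding gene body lay 9 of the 47 and 237 of the 537. Correspondingly, 38 of 338 members with the summit outside protein-coding genes were thresholded (11.2%), against 9 of 246 with the summit inside one (3.66%). This is not particular to members. Over all autosomal peaks 64.6% of thresholded summits and 32.4% of the others were intergenic. For one-strand peaks with no close follower it was 73.6% and 59.2%, while divergent promoters had 85.6% and 87%. The windows of 50 bp to either side of the summit had a median GC content of 43.6% in thresholded members and 35.6% in other members. Over all autosomal peaks these medians were 42.6% and 36.6%. The part of base composition in these differences was not tested.

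The gap to the following gene was part of the rule, but its size within the 500 bp was not. Its median was 116 bp in thresholded members and 118 bp in the others. Thresholded were 8 of 174 members with a gap of up to 100 bp (4.6%, exact interval 2.01% to 8.86%), 24 of 215 with a gap above 100 and up to 200 bp (11.2%, 7.28% to 16.2%) and 15 of 195 with a gap above 200 and up to 500 bp (7.69%, 4.37% to 12.4%). Beyond the limit of the rule the shares were 6.5% for gaps up to 1000 bp, 5.58% up to 5000 bp and 4.74% for longer ones. The middle bin was the highest, and its interval overlaps those of both neighbours. Runs of 2 genes and runs of 3 or more had the same share of thresholded members, 8.05% each (35 of 435 and 12 of 149).

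Members also lay before genes that are not the first of their run. Of 210 members whose nearest gene had another gene of its strand ending at most 500 bp before it, 20 were thresholded (9.52%, exact interval 5.91% to 14.3%), against 27 of 374 members at the first gene of a run (7.22%, 4.81% to 10.3%). In 16 of the 20 the summit fell in the gap behind the preceding gene (80%), with a median gap of 360 bp among these 16, and it did so in 77 of the 190 other inner members (40.5%), with a median gap of 291 bp among these 77. Examples are ZK1248.19, pro-1, eif-2gamma, cebp-2 and emr-1. These peaks stand inside a row of genes and not at its head.

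Peaks found inside the runs of thresholded members were weaker than the member upstream, apart from 2 runs. These runs were chosen by a thresholded peak upstream, and the peaks inside had no such filter. A stronger peak upstream was thus largely set by the choice, and no runs chosen otherwise were compared. Of the runs behind the 44 genes with a thresholded member, 36 held a pooled summit inside the run, 76 summits in all, and 11 runs held a summit in a gap between genes. The 2 exceptions held a thresholded peak inside, and in both it was stronger than the member upstream. In the run of egl-30, a G protein alpha subunit with a member of 44.7, it was the peak of emr-1 at 72, which is itself a member. In the run of dpy-9, with a member of 43.3, it was a peak of 492 in the gap before R02D3.8, an exonuclease domain gene close to rcat-1. The runs of egl-30 and dpy-9 are named after their values were seen. For comparison, sqd-1 had the most summits inside its run, 9, the strongest at 26.5.

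The same question was asked of genes in each replicate separately. Among 3335 autosomal protein-coding genes followed by another within 500 bp, 166 (4.98%), 125 (3.75%) and 131 (3.93%) were nearest to a one-strand promoter peak among the strongest of replicates 1, 2 and 3, counted as for the support. Among the 13907 other genes it was 352 (2.53%), 310 (2.23%) and 346 (2.49%). The lowest value of genes with a close follower was above the highest of the other genes, and replicate 3, with its different labels, lay between replicates 1 and 2 in the first set. Genes with a close follower averaged 4.22% ± 0.664 and other genes 2.42% ± 0.163 (SD, n = 3 each), a mean difference of 1.8 points ± 0.56. An exact sign-flip permutation test over the 3 replicates, two-sided, gave p = 0.25, the smallest that 3 replicates allow. With only as many replicate peaks as the thresholded list holds the mean difference was 0.527 points, with 5000 peaks 2.71, and with a longest gap of 200 bp 2.82 and of 1000 bp 1.07. The 3335 genes are 2440 first genes and 895 inner genes, which have a gene close before and behind them. In the thresholded list, 1.33% of the 17242 autosomal protein-coding genes were nearest to a promoter peak of any kind.

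Split by place in a run, with one-strand promoter peaks counted as before, inner genes stood highest. This split by one-strand peaks was added after the data were seen. It leaves out divergent promoters, which genes close behind another hardly have. In the pooled list 187 inner genes were nearest to a one-strand peak and 192 to any promoter peak. For first genes these counts were 334 and 498, and for genes in no run 1171 and 1477. The count itself thus lowers first genes and genes in no run against inner genes. Nearest to a strong one-strand peak in replicates 1, 2 and 3 were 4.43%, 3.07% and 3.36% of first genes and 6.48%, 5.59% and 5.47% of inner genes. For the 2455 last genes it was 3.99%, 2.77% and 3.95%, and for the 11452 genes in no run 2.22%, 2.11% and 2.17%. First genes differed from inner genes by -2.23 points ± 0.249 (lower in 3 of 3 replicates, exact sign-flip p = 0.25, two-sided, n = 3). Against last genes the difference of first genes was 0.0493 points ± 0.558 and of mixed sign (higher in 2 of 3 replicates, exact sign-flip p = 1), and that of inner genes was 2.28 ± 0.672 (3 of 3, p = 0.25). Against genes in no run, first genes were higher by 1.45 points ± 0.665 and inner genes by 3.68 ± 0.513, each in 3 of 3 replicates with an exact sign-flip p of 0.25, the smallest possible.

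With divergent promoters counted too, first genes came level with inner genes. The shares were then 7.25%, 5.45% and 5.66% for first genes and 6.82%, 5.92% and 5.47% for inner genes, against 4.07%, 2.85% and 4.07% for last genes and 3.52%, 3.11% and 3.16% for genes in no run. First genes averaged 6.12% ± 0.987 and inner genes 6.07% ± 0.683, a difference of 0.0495 points ± 0.469 (exact sign-flip p = 1, two-sided, n = 3). Against last genes (3.67% ± 0.706) first genes were higher by 2.45 points ± 0.809 and inner genes by 2.4 ± 0.884, and against genes in no run (3.26% ± 0.223) first genes were higher by 2.86 ± 0.764. These last 3 differences had the same sign in 3 of 3 replicates, with an exact sign-flip p of 0.25. How first genes compare with inner and last genes thus depends on whether divergent promoters are counted. In the thresholded list 55 first genes (2.25%), 18 inner genes (2.01%), 19 last genes (0.774%) and 137 genes in no run (1.2%) were nearest to a promoter peak of any kind, and 26 (1.07%), 18 (2.01%), 19 (0.774%) and 69 (0.603%) to a one-strand one. The free sequence upstream of the start was shorter for members (median 481 bp) than for one-strand peaks with no close follower (678 bp), and its part in these shares was not tested.

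**Figure D5:**
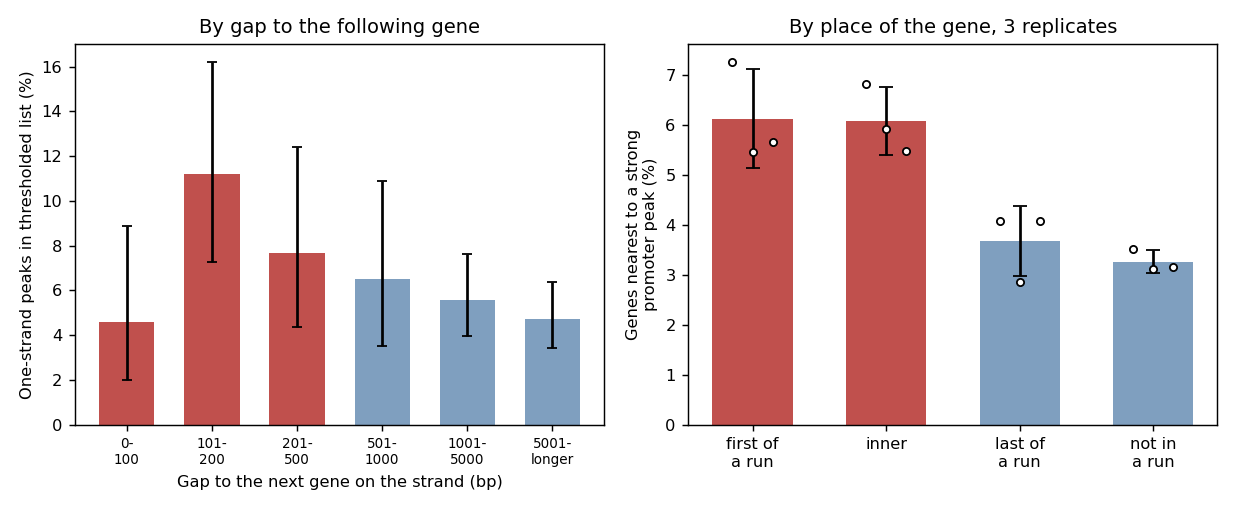
Left, share of one-strand promoter peaks in the thresholded list by gap to the next gene on the strand, with exact 95% intervals; red bars are members, and gaps above 100 and up to 200 bp stand highest at 11.2%. Right, percent of genes nearest to a promoter peak among the strongest of each replicate, by place in a run and with divergent promoters counted, with the mean and SD as bar and error bar and the 3 replicates as points; first and inner genes lie near 6% and the other 2 classes at most at 4.07%.

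Gene groups were described through 21 lists made by gene symbol, which miss members whose symbol does not show their role. Of 16 members with a cytosolic ribosomal protein gene anywhere in the run, 5 were thresholded (31.2%), namely those of rps-24, rla-0 and rps-28 and both peaks of rpl-29. Of 16 members with a mitochondrial ribosomal protein gene, 3 were thresholded (18.8%), those of the rpb-6 run, of mrpl-23 and of sel-1, whose run holds mrps-5. Translation factors had 2 of 15 (13.3%), RNA polymerases and general transcription factors 2 of 21 (9.52%), and vesicle trafficking 3 of 29 (10.3%), which are the runs of F59G1.8, arl-8 and sec-61.G. Collagens had 2 of 6, the runs of dpf-3 and dpy-9. Over all members the share was 8.05%, and these counts are too small to set one list apart.

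Other lists had at most 1 thresholded member. Respiratory chain genes had 1 of 8 (ndub-3), splicing 1 of 21 (the run of sqd-1 with lsm-8), RNA exosome and processing 1 of 14 (the rpb-6 run), and chromatin and replication 1 of 19 (hat-1). Small RNA and germ granule genes had 1 of 8 (the eif-2gamma run with ekl-7), and the mevalonate and ubiquinone list 1 of 6 (fnta-1). By product, thresholded members outside these counts include C26B2.7 of cytochrome c oxidase assembly, F59G1.8 of the E granule, and the run of sec-61.G with F32D8.13, a phosphomevalonate kinase. None was thresholded among 19 members with a chemoreceptor gene, 16 with a cell cycle gene, 9 with a proteasome or ubiquitin gene, 8 with an aminoacyl-tRNA synthetase gene, 5 with a chaperone gene, 5 with an F-box, MATH or BTB gene, 4 with a C-type lectin gene, 3 with a nuclear hormone receptor gene and 2 with a citric acid cycle gene. The cell cycle list does not hold the checkpoint kinase chk-1, whose peak was thresholded. Members in runs with a gene of any list had 20 of 216 thresholded (9.26%) and members in runs with none 27 of 368 (7.34%). The lists also differ in how many of their genes have a close follower at all, from 10.6% of the 161 collagen genes to 60% of the 15 mevalonate and ubiquinone genes, with 39.2% of the 79 cytosolic ribosomal protein genes.

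RNA genes stood near a minority of members. A snoRNA start lay within 1000 bp downstream of the summit in 2 of the 47 thresholded members and in 10 of the 537 others. For genes annotated as ncRNA these counts were 3 of the 47 and 35 of the 537. No share over all autosomal peaks is set beside these counts. The summit assigned to mrpl-23 (43.6) lay 987 bp upstream of that gene but 48 bp from the snoRNA gene T08B2.13, and the summit assigned to gst-27 (48.5) lay 67 bp from the snoRNA gene Y53F4B.48. For mrpl-23 the ranks in replicates 1, 2 and 3 were 242, 696 and 3333, and for gst-27 they were 306, 432 and 589. Both genes were named after their values were seen. No tRNA start lay near a thresholded member, against 2 of the 537 others. The rule assigns a peak by protein-coding starts only, so a nearer RNA gene does not change its membership.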

How the data were processed

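ChIP-seq of 3 biological replicates was analysed from the authors' ce11 peak lists: 1 per replicate, the pooled list and the thresholded list. Each replicate and the pooled reads were called against 1 control alignment, per the deposited description files. The name of the aligner or caller and the cutoff for irreproducible discovery were not given in the sources used here. Deposited signal is the authors' strength per peak, by which peaks were ranked inside each list. The −log10 q-value per peak is also the authors' and took no part in ranking. These lists hold no read counts, so depth is unknown and intervals cover counting error over peaks only. 0 columns of other samples were present.

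Genes came from Ensembl release 115 (WBcel235). The upstream window was 1000 bp and the longest gap 500 bp; the following gene was the first protein-coding gene of the strand starting behind the end of the nearest one. A pooled peak was thresholded when the same interval and summit were in the thresholded list. Support used the strongest peaks of each replicate, 5 times as many as the thresholded list holds, by summit inside the peak. Sequence windows reached 50 bp to either side of the summit. Shares carry exact 95% Clopper-Pearson intervals and differences Newcombe intervals. Replicates were compared by exact sign-flip permutation. Python 3.11.15, numpy 2.4.6, pandas 2.3.3, scipy 1.17.1 and matplotlib 3.10.9 were used, and the classification was tested on simulated data.

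Named are the 25 strongest thresholded members, the 2 strongest of each gene list, the longest runs and the 3 members on each side of the threshold; other names were added after their values were seen. Sequences are from members without and with the 8-mer and none is from the first chromosome. The members, gene lists, 8-mer and tests were chosen with earlier results of these data known. Alternatives covered the gap, window, gene starts, threshold, peak number, motif window and each replicate left out.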

Additional observations from a re-analysis of the deposited data

How the results depend on the processing

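The list of members depends on the rule: 389 remained with a gap of at most 200 bp, 374 with first genes of runs only, and 338 with summits outside protein-coding genes, an alternative added after seeing the data. Thresholded members numbered 27 with first genes only and 22 among the 195 strongest thresholded peaks. The share of members thresholded was then 3.77% for the stronger peaks and 11.2% for summits outside genes, where the cause was not tested. The share with CGTAAATC was 23.4% within 25 bp of the summit. Full support fell to 19 of 47 with the 390 strongest replicate peaks. Without each replicate in turn, the mean difference between genes with a close follower and other genes ranged from 1.48 to 1.98 points (exact sign-flip permutation p = 0.5, the smallest that 2 replicates allow), and full support by the other 2 from 36 to 41 members. The mean difference of genes with a close follower was 0.527 with the 390 strongest replicate peaks, 2.71 with 5000, 1.07 with gaps up to 1000 bp and 2.82 with gaps up to 200 bp. The difference of members from one-strand peaks with no close follower was positive in all 12 alternatives tried, from 0.931 points with the stronger peaks to 4.45 with summits outside genes, and its interval contained 0 in 2 of them, the stronger peaks (0.931) and first genes only (1.95). First genes were level with inner genes with all promoters (0.0495 points) and lower with one-strand peaks only (-2.23). The one-strand count was added after seeing the data, and it drops peaks of first genes more than of inner genes. The first-minus-last difference was 2.45 with all promoters and 0.0493 with one-strand peaks.

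Depth is unknown, so weak peaks have no counting error here. The control is shared between replicates, overlapping members are not independent, gene spacing stands in for operons, and 3 replicates allow no p below 0.25.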
